A study of Mus musculus with 6 samples.

Results

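H3K27me3 peaks called in Sox13hi γδ thymocytes, with no H3K27me3 peak called nearby in Sox13lo cells, are described here. The peaks were chosen by the H3K27me3 peak calls of both populations: each lies on chromosomes 1 to 19, more than 5 kb, edge to edge, from the nearest Sox13lo H3K27me3 peak. The rule selected 8201 of the 14483 autosomal Sox13hi H3K27me3 peaks (56.6%), out of 74959 peaks in the 5 lists of the series. They are called Sox13hi-only peaks below, and the other 6282 Sox13hi peaks, which have a Sox13lo peak within 5 kb, are called neighboured peaks. "Only" refers to the 2 peak lists and not to the absence of the mark, since Sox13lo signal below the calling threshold was not analysed here.

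Chromatin immunoprecipitation and sequencing (ChIP-seq) was done on sorted thymocytes of C57BL/6 mice with the genotype TCRbeta KO.Sox13 ECFP KI/+. All groups thus share the loss of the TCRβ chain and a knock-in of the cyan fluorescent protein reporter (CFP) on 1 Sox13 allele. Cells were γδ-positive and CD24-positive, with high CFP (Sox13hi) or with low or no CFP (Sox13lo), so Sox13lo is a mixed gate. No source used here gives the ages or number of animals. H3K27me3 and H3K4me3 were mapped in both populations from 250000 cells each, and SOX13 in Sox13hi from 1000000 cells, with 1 library per group. Differences between the populations thus cannot be set against a replicate, and p-values are not given. The identity of the sorted cells could not be checked against marker genes, because gene positions in the build of the files, mm9, were not analysed here. DNA sequence and genes at the peaks were likewise not analysed here, and peaks are named by position.

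H3K27me3 is written by Polycomb repressive complex 2 (PRC2) and marks genes that are held silent, often developmental regulators of other lineages. It can spread over long domains, and at CpG-rich promoters it can lie on the same region as H3K4me3, the mark of active and poised promoters, a state called bivalent. SOX13 is an HMG-box transcription factor needed for the γδ T cells that produce interleukin-17, and its gene is transcribed in a subset of immature γδ thymocytes.

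Each list gives 1 position and 1 score per peak. The score is the authors' own value, and no source used here defines it, so it serves only to rank peaks within a list. Depth is unknown. The Sox13lo H3K27me3 list has 7268 autosomal peaks against 14483 in Sox13hi, and a difference in depth or calling threshold cannot be told apart from a difference in the mark. In the reverse direction 1849 Sox13lo peaks (25.4% of that list) had no Sox13hi peak within 5 kb.

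Most Sox13hi-only peaks were low-scoring. Their median score was 10.5, with a middle range (25th to 75th percentile) of 6.5 to 16.5, against a median of 28.75 for neighboured peaks. In the lowest score decile of the Sox13hi list 88.4% of peaks (1279 of 1447) were Sox13hi-only, and in the highest decile 5.32% (77 of 1447, 95% exact binomial interval 4.22 to 6.61%). The share fell at every step between them, as the plot by score decile shows. The rule used the peak calls of this list, so this profile is a description of the selected peaks and not a test. Intervals here and below are exact (Clopper-Pearson). They take each peak as independent and cover only counting error.

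**Figure D1:**
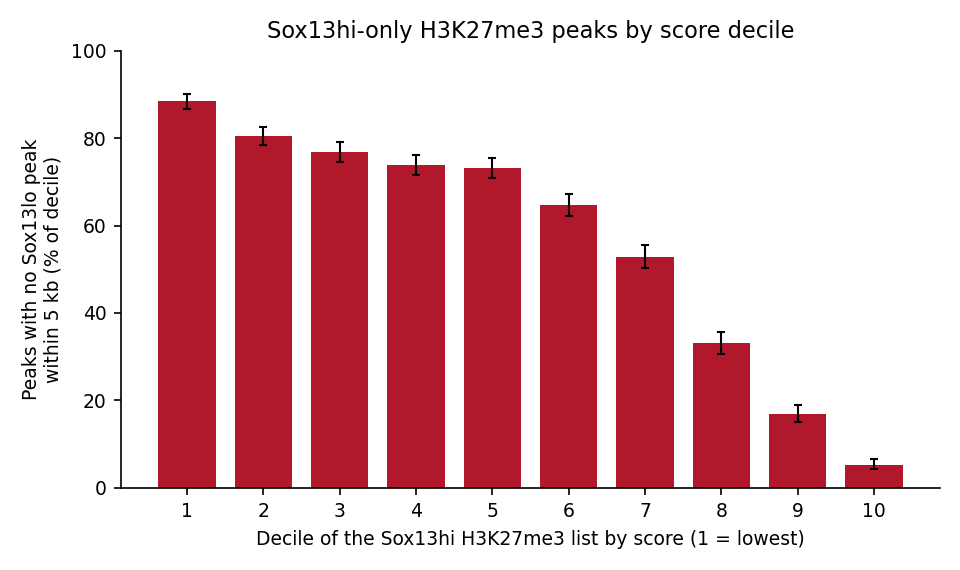
Share of autosomal Sox13hi H3K27me3 peaks that have no Sox13lo H3K27me3 peak within 5 kb (vertical axis, percent), by decile of the list by score (horizontal axis, 1 is lowest). Error bars are 95% exact binomial intervals. The share is 88.4% in the first decile and falls to 5.32% in the last.

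At equal rank from the top of each list, peaks without a counterpart were few among the highest-scoring 1000 of both populations and more frequent further down. Among the 100 highest-scoring autosomal peaks of each list 1 was Sox13hi-only and 0 were Sox13lo-only, which allows a share of up to 3.62%. Among the 1000 highest-scoring, 38 were Sox13hi-only (3.8%, 2.70 to 5.18%) and 20 Sox13lo-only (2.0%, 1.23 to 3.07%). Among the 4000 highest, the numbers were 661 (16.5%, 15.4 to 17.7%) and 390 (9.75%, 8.85 to 10.7%), and among the 7268 highest 2529 (34.8%, 33.7 to 35.9%) and 1849 (25.4%, 24.4 to 26.5%). Each peak was held here against the whole list of the other population, and the Sox13hi list is the longer one. With the Sox13hi list limited by score to 7268 peaks, 2313 Sox13lo peaks in place of 1849 had no Sox13hi peak within 5 kb, against 2529 Sox13hi-only peaks. The part of list length in the counts at higher ranks cannot be told from them.

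Sox13hi-only peaks were mostly far from the nearest Sox13lo peak. The median distance was 145.8 kb, and 4837 of them (59.0%) were more than 100 kb away. The rule selects on this distance, and distances of other genome positions to the Sox13lo peaks were not measured for comparison. Only 500 Sox13hi-only peaks lay between 5 and 10 kb, just inside the limit of the rule. These had a median width of 250 bp, a median score of 13, H3K4me3 of Sox13hi at 9.2% and SOX13 at 0.6%. The 494 neighboured peaks just outside the limit, at more than 2.5 and up to 5 kb, had a median width of 250 bp, a median score of 14.1, H3K4me3 at 5.47% and SOX13 at 1.62%. Width and score were thus similar on both sides of the limit. The H3K4me3 and SOX13 shares rest on few peaks and are given without intervals, so no difference between the sides is read from them. The 3654 peaks that overlapped or touched a Sox13lo peak were wider, with a median of 500 bp and a score of 43.5.

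The top 25% by score were separated from the rest at a score of 16.5, ties included, which gave 2070 top peaks and 6131 remaining peaks. At the boundary the values were continuous. The 45 peaks scored 16.5 and the 62 scored 16.25 had the same median width of 300 bp, and 1 peak of each overlapped Sox13hi H3K4me3.

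Top peaks were wider than the remaining ones. Their median width was 350 bp, with a middle range of 300 to 400 bp, against 200 bp and 150 to 250 bp for the rest. The rest included 1214 peaks of 100 bp, the narrowest width in the list, and the top 25% included 1. Peaks over 500 bp numbered 166 among the top peaks (8.02%) and 2 among the rest. Neighboured peaks had a median of 400 bp, and 1904 of them (30.3%) were over 500 bp. Few were broad: 8 of the 8201 exceeded 1 kb, against 461 of the 6282 neighboured peaks. In all, Sox13hi-only peaks covered 2.01 Mb, of which top peaks made up 0.764 Mb.

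**Figure D2:**
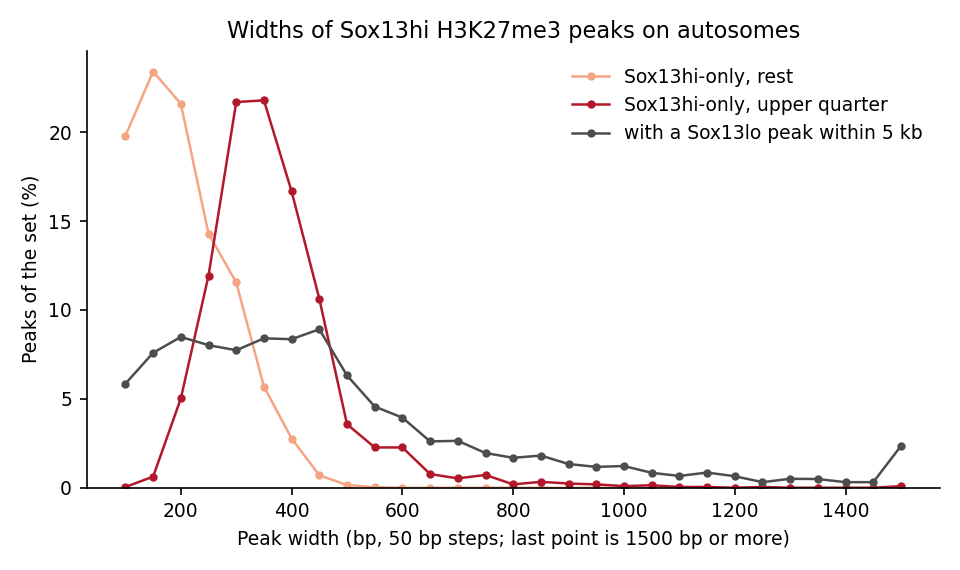
Widths of autosomal Sox13hi H3K27me3 peaks (horizontal axis, bp) as a percentage of each set (vertical axis), for the top 25% of Sox13hi-only peaks by score, the remaining Sox13hi-only peaks and peaks with a Sox13lo peak within 5 kb. Medians are 350, 200 and 400 bp, and only the last set extends in number beyond 600 bp.

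H3K4me3 was present at a minority of Sox13hi-only peaks, and its share was higher among top peaks. H3K4me3 of Sox13hi was overlapped (by at least 1 bp) by 583 Sox13hi-only peaks, 7.11% (6.56 to 7.69%), where 22.2% of all autosomal Sox13hi H3K27me3 peaks did so. Among top peaks the number was 407 of 2070 (19.7%, 18.0 to 21.4%), and among the rest 176 of 6131 (2.87%, 2.47 to 3.32%). The difference was 16.8 percentage points (Newcombe-type interval 15.0 to 18.6). H3K4me3 of Sox13lo was overlapped by 556 Sox13hi-only peaks (6.78%, 6.24 to 7.35%), against 20.9% of all. It was at 385 top peaks (18.6%, 16.9 to 20.3%) and 171 of the rest (2.79%, 2.39 to 3.23%), a difference of 15.8 points (14.1 to 17.6). These shares depend on how far down the list peaks are taken. With the Sox13hi list limited by score to the length of the Sox13lo list, 424 of 2529 Sox13hi-only peaks (16.8%) overlapped H3K4me3 of Sox13hi, and 44.1% of the top 25% among them.

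The difference between top and remaining peaks was also seen among peaks of 1 width. Of Sox13hi-only peaks exactly 300 bp wide, 48 of 449 top peaks (10.7%, 7.99 to 13.9%) overlapped H3K4me3 of Sox13hi, against 10 of 708 remaining ones (1.41%, 0.679 to 2.58%). Of those 200 bp wide, 31.7% of 104 top peaks (22.9 to 41.6%) and 2.34% of 1324 remaining ones (1.60 to 3.31%) did so. For 400 bp the shares were 18.0% of 345 (14.1 to 22.4%) and 0 of 170, which allows a share of up to 2.15%.

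Within the top 25% the increase continued. Of the 125 Sox13hi-only peaks with a score of 50 or more, 99 overlapped H3K4me3 of Sox13hi (79.2%, 71.0 to 85.9%). In the upper 10% of Sox13hi-only peaks by score it was 37.7% (34.4 to 41.1%). Such a rise was not particular to Sox13hi-only peaks. In the ninth score decile of the Sox13hi list (35.75 to 58), 54.3% of them and 56.2% of neighboured peaks overlapped H3K4me3 of Sox13hi. In the highest decile (58.25 and above) the shares were 85.7% and 85.3%. Most of the top 25% had no H3K4me3, a share close to that of the whole list: 1607 of 2070 (77.6%, 75.8 to 79.4%) overlapped it in neither population, against 74.6% of all autosomal Sox13hi H3K27me3 peaks. For 1577 (76.2%) no peak of SOX13 or of either H3K4me3 list was found, against 73.7% of all. Among the rest this last number was 5839 of 6131 (95.2%).

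Where H3K4me3 was present at a Sox13hi-only peak, it was usually called in both populations. Of the 705 peaks with H3K4me3 in either population, 434 had it in both (61.6%, 57.9 to 65.2%), 149 in Sox13hi alone and 122 in Sox13lo alone. Among top peaks 329 of 463 had it in both (71.1%, 66.7 to 75.2%), and among neighboured peaks 71.1% (69.5 to 72.7%). Among the rest it was 105 of 242 (43.4%, 37.1 to 49.9%). At these 434 sites the 2 populations differ in the call of H3K27me3 and not in that of H3K4me3. Sites that carry H3K27me3 in Sox13hi and H3K4me3 in Sox13lo alone made up 1.49% of Sox13hi-only peaks (1.24 to 1.77%), against 3.25% of all autosomal Sox13hi H3K27me3 peaks and 5.56% of neighboured peaks. There were 56 in the top 25% (2.71%) and 66 in the rest (1.08%). H3K4me3 in either population was itself less frequent at Sox13hi-only peaks, at 8.60% against 25.4% of all and 47.3% of neighboured peaks. Among peaks with H3K4me3 in either population, the share with it in Sox13lo alone was higher for Sox13hi-only peaks. The numbers were 122 of 705, against 471 of 3679 for all and 349 of 2974 for neighboured peaks. The excess lay in the low-scoring rest, at 66 of 242, and top peaks, at 56 of 463, were close to the other sets. The share with H3K4me3 in Sox13hi alone was higher too, at 149 of 705 Sox13hi-only against 510 of 2974 neighboured peaks. H3K4me3 in 1 population only was in Sox13hi for 149 of 271 peaks (55.0%, 48.8 to 61.0%), against 510 of 859 neighboured peaks (59.4%, 56.0 to 62.7%).

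The H3K4me3 peaks under Sox13hi-only peaks were ordinary in size. The 391 Sox13hi H3K4me3 peaks under top peaks had a median width of 850 bp and a median score percentile of 51.3 in their own list, where all 19924 peaks have a median width of 800 bp. Under the rest the 173 peaks had a median of 750 bp and a percentile of 43.7. H3K27me3 lay inside the H3K4me3 peak more often than at its edge: 217 of the 407 top peaks (53.3%) and 127 of the 176 remaining ones (72.2%) were wholly covered by it, against 1130 of 2625 neighboured peaks (43.0%). Centres were 225 bp apart at the median in the top 25%. A narrow peak is more easily covered whole. Peaks with H3K4me3 in either population had median widths of 400 bp (top), 150 bp (rest) and 500 bp (neighboured). The part of width in the covered shares was not tested.

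Compared with neighboured peaks as a set, Sox13hi-only peaks had less H3K4me3, and this was so at matched score up to the eighth decile. Overall the share for Sox13hi was 7.11% against 41.8% (40.6 to 43.0%), a difference of -34.7 points (-36.0 to -33.3). Because neighboured peaks score higher, the comparison was repeated within score deciles of the Sox13hi list. Sox13hi-only peaks had the lower share in 9 of 10 deciles, and the intervals were separate in 8, the first to the eighth. In the fifth decile 4.17% of Sox13hi-only peaks (3.07 to 5.52%) and 18.4% of neighboured peaks (14.7 to 22.5%) overlapped Sox13hi H3K4me3. The ninth decile gave 54.3% (47.8 to 60.6%) for Sox13hi-only and 56.2% (53.3 to 59.0%) for neighboured peaks. The highest gave 85.7% (75.9 to 92.6%), from 77 Sox13hi-only peaks, and 85.3% (83.3 to 87.1%). With the neighboured peaks weighted to the score deciles of Sox13hi-only peaks, their share was 18.4% for H3K4me3 of Sox13hi and 16.1% for that of Sox13lo. In the 2 highest deciles the intervals of both sets overlapped.

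**Figure D3:**
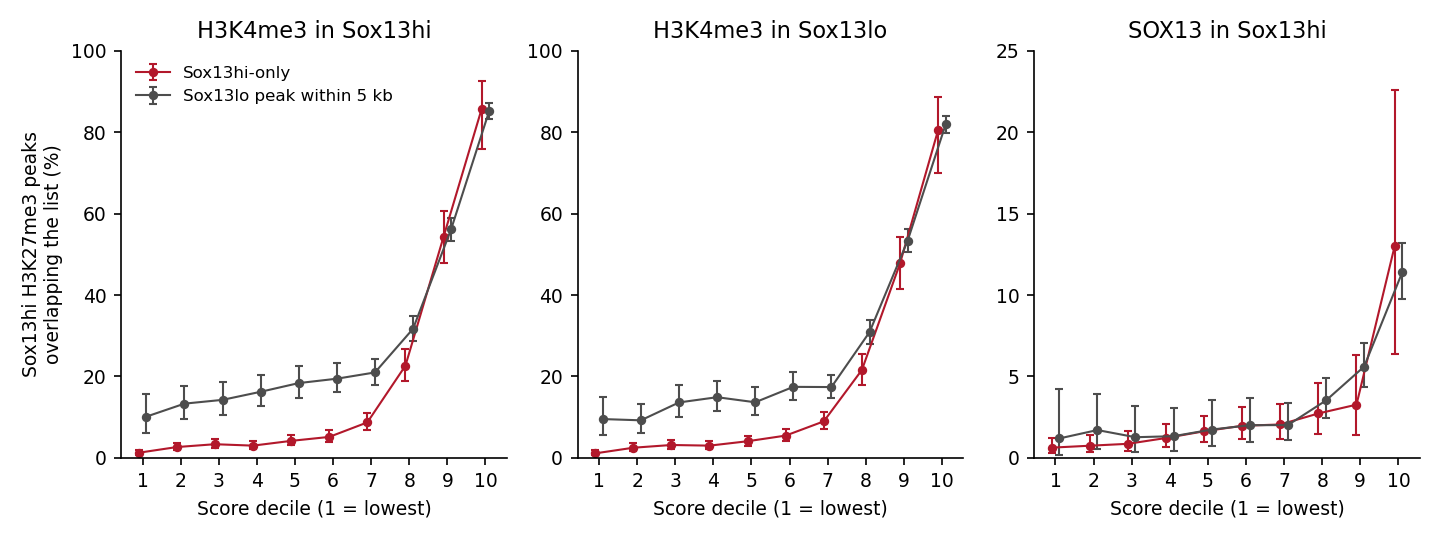
Share of autosomal Sox13hi H3K27me3 peaks overlapping H3K4me3 of Sox13hi, H3K4me3 of Sox13lo or SOX13 (vertical axes, percent, with a scale of its own for SOX13), by score decile (horizontal axes), for Sox13hi-only peaks and peaks with a Sox13lo peak within 5 kb. Bars are 95% exact binomial intervals. For H3K4me3 the sets are apart in the first 8 deciles and meet in the ninth and highest, and for SOX13 the intervals overlap throughout.

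SOX13 peaks were rare on Sox13hi-only H3K27me3. In the population in which SOX13 was mapped, 122 of the 8201 peaks overlapped one (1.49%, 1.24 to 1.77%), against 2.94% of all autosomal Sox13hi H3K27me3 peaks and 4.84% (4.32 to 5.40%) of neighboured peaks. The share was 2.80% of top peaks (58 of 2070, 2.13 to 3.61%) and 1.04% of the rest (64 of 6131, 0.805 to 1.33%), a difference of 1.76 points (1.03 to 2.60). At each width from 200 to 400 bp the top share was the higher, but the intervals overlapped. For 300 bp the shares were 2.23% of 449 top peaks (1.07 to 4.06%) and 1.13% of 708 remaining ones (0.489 to 2.21%). At matched score the intervals of Sox13hi-only and neighboured peaks overlapped in all 10 deciles, and neighboured peaks weighted to the same deciles had 1.90%. Within Sox13hi-only peaks SOX13 went with H3K4me3: 42 of the 705 peaks with H3K4me3 in either population held it (5.96%, 4.33 to 7.97%), against 80 of the 7496 without (1.07%, 0.847 to 1.33%). The same held for all autosomal Sox13hi H3K27me3 peaks, at 7.91% and 1.25%, and for neighboured peaks, at 8.37% and 1.66%. The SOX13 peaks under top peaks, 59 in number, had a median width of 300 bp and a median score percentile of 56.0 in their list. Under neighboured peaks the 303 SOX13 peaks had a percentile of 74.4.

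Sox13hi-only peaks also lay farther from H3K4me3 than neighboured peaks did. Top peaks were at a median of 17.3 kb from the nearest Sox13hi H3K4me3 peak, the rest at 39.0 kb and neighboured peaks at 0.35 kb. Top peaks within 1 kb of such a peak without touching it numbered 138 (6.67%), and 588 (28.4%) were more than 50 kb away. Of the rest, 2699 (44.0%) were beyond 50 kb. Distances to SOX13 differed less: the medians were 41.0 kb for top peaks, 58.3 kb for the rest and 29.5 kb for neighboured peaks. These distances are tied to the rule in part, since neighboured peaks were chosen for lying near peaks of another list.

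**Figure D4:**
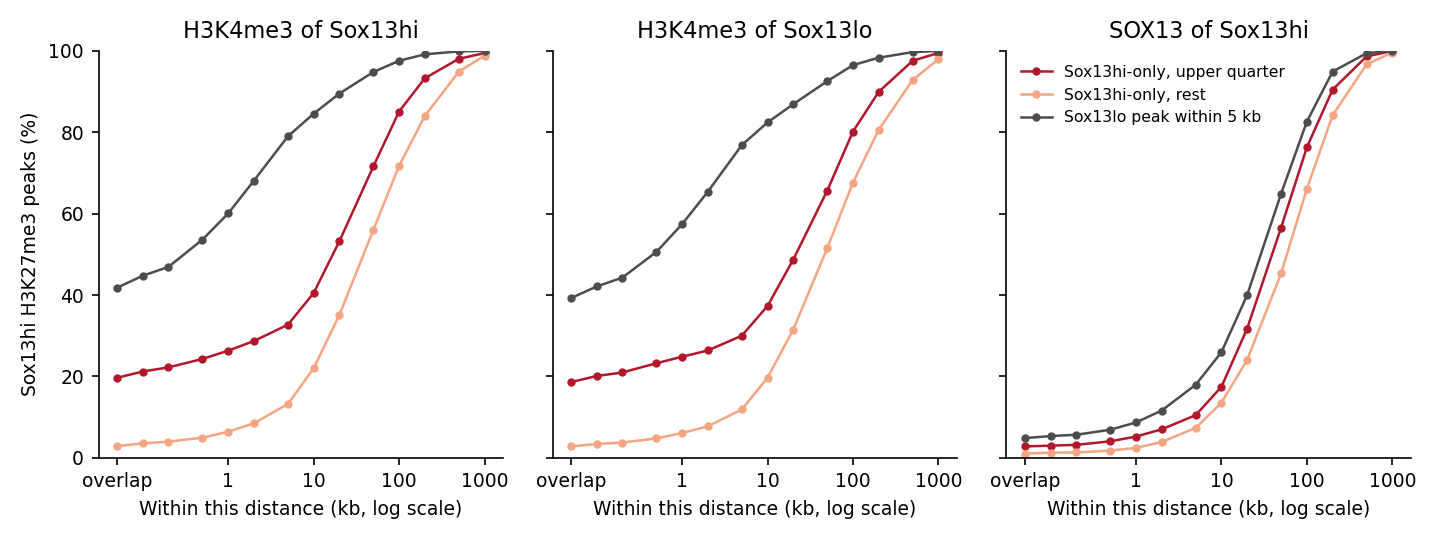
Cumulative share of autosomal Sox13hi H3K27me3 peaks (vertical axes, percent) with a peak of the named list within a given distance (horizontal axes, kb, log scale, the first point being overlap). Curves are the top 25% of Sox13hi-only peaks, the remaining Sox13hi-only peaks and peaks with a Sox13lo peak within 5 kb. For H3K4me3 the top peaks start at 19.7% and 18.6% and the rest at 2.87% and 2.79%, and for SOX13 the 3 curves lie closer together.

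Sox13hi-only peaks were mostly single. Linking those within 5 kb of each other gave 7196 single peaks and 463 runs of 2 or more, which hold 1005 peaks (12.3%, 11.6 to 13.0%). Among all autosomal Sox13hi H3K27me3 peaks 41.3% were in such runs, and among neighboured peaks 77.6% (76.6 to 78.7%). The rule enters the share of neighboured peaks, because a peak close to a Sox13lo peak often has neighbours that are close to it too. Of the 463 runs 395 had 2 peaks, 59 had 3, 7 had 4 and 2 had 5. Neighboured peaks formed 217 runs of 5 or more, and their longest had 17. Within 5 kb of a neighboured peak lay 93 Sox13hi-only peaks (1.13%), a number that the rule keeps low, since it sets both kinds of peak by their distance from Sox13lo peaks. In all, 7122 (86.8%) had no other Sox13hi H3K27me3 peak within that distance.

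Top peaks were more often in runs, at 19.7% (408 of 2070, 18.0 to 21.5%) against 9.74% of the rest (597 of 6131, 9.01 to 10.5%), a difference of 9.97 points (8.11 to 11.9). A top peak was present in 279 of the 463 runs, and 91 runs held top peaks alone. Runs spanned 2.2 kb at the median and at most 10 kb, with a median gap of 1300 bp between peaks, and peaks covered 28.6% of a run's span at the median. H3K4me3 was more frequent in runs. Among top peaks, 136 of 408 in runs overlapped Sox13hi H3K4me3 (33.3%, 28.8 to 38.1%), against 271 of 1662 single ones (16.3%, 14.6 to 18.2%). Top peaks in runs also had the higher median score, 27.5 against 21.5, and the part of score in this difference was not tested. SOX13 was at 10 of the 408 (2.45%, 1.18 to 4.46%) and 48 of the 1662 (2.89%, 2.14 to 3.81%), with overlapping intervals.

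The runs with the most peaks were few and differed in H3K4me3. One on chromosome 4, 48058351 to 48064849, had 5 peaks covering 3400 bp of a 6500 bp span and lay 477.3 kb from the nearest Sox13lo H3K27me3 peak. Its first peak, scored 11, and its main peak, 1750 bp wide and scored 110.5, overlapped a Sox13hi H3K4me3 peak of 2500 bp that ranked 470 among 19924. In Sox13lo the H3K4me3 peak there was 2250 bp wide and ranked 342 among 17954, so H3K4me3 ranked high in both. Of the 5 peaks 3 overlapped H3K4me3 of Sox13hi and 4 that of Sox13lo, and no SOX13 peak was nearer than 104.3 kb. The other run of 5, on chromosome 17, 8622551 to 8627649, had scores of 8.25 to 48.75 and no H3K4me3 within 40.1 kb in Sox13hi. Among the 7 runs of 4, the 3 that cover the most sequence were taken. Those on chromosome 12, at 87762401 to 87771099 and at 70975651 to 70980349, and on chromosome 1, at 134094301 to 134104299, had top scores of 43.5, 36.5 and 21.25 and touched none of the other lists. Over all 7 runs of 4, 1 of 28 peaks overlapped H3K4me3 of Sox13hi. The second of the 3 lay 8.25 kb and the last 6 kb from a Sox13lo H3K27me3 peak, close to the limit of the rule.

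**Figure D5:**
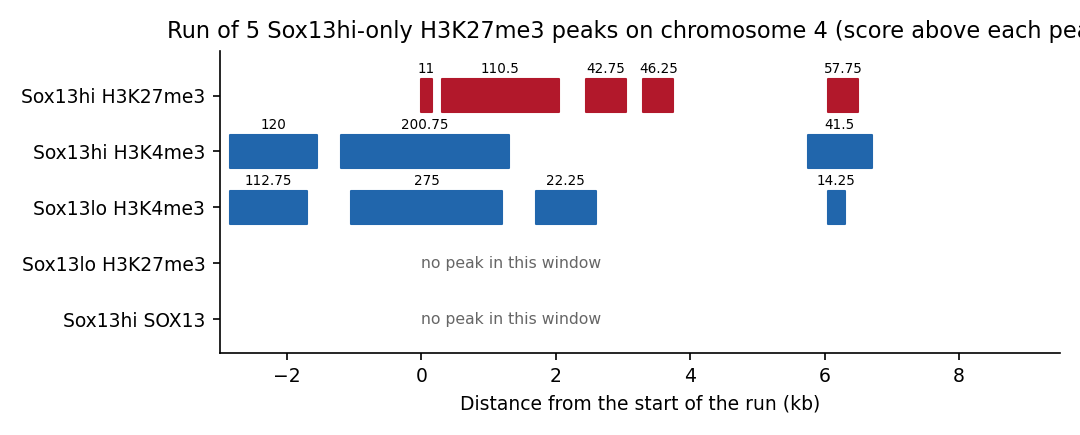
Peaks of the 5 lists (rows) around the run of 5 Sox13hi-only H3K27me3 peaks on chromosome 4, by distance from the start of the run (horizontal axis, kb). Numbers above the peaks are scores, which are comparable only within a row. H3K4me3 is called in both populations at the left end and at the right end of the run, and the Sox13lo H3K27me3 and SOX13 rows are empty.

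Of the 10 highest-scoring Sox13hi-only peaks, 8 held H3K4me3 in both populations. Such overlap was common at high score. In the highest score decile of the Sox13hi list, 85.3% of neighboured peaks overlapped H3K4me3 of Sox13hi and 82.0% that of Sox13lo. The highest-scoring Sox13hi-only peak, on chromosome 6, 40841651 to 40842249, had a score of 857, 6.02 times that of the next. This peak had the second highest score of the autosomal list. Its SOX13 peak ranked 12 of 13494. Its H3K4me3 peak was 600 bp wide with rank 5149 in Sox13hi and 400 bp wide with rank 12715 in Sox13lo. The Sox13hi H3K4me3 peak had the same start and end as the H3K27me3 peak, and the SOX13 peak lay inside them. The nearest Sox13lo H3K27me3 peak was 138.75 kb away. These ranks put the H3K4me3 peak at 25.8% from the top of its list in Sox13hi and at 70.8% in Sox13lo. Its enrichment in the input library was not analysed here.

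The 5 peaks named next had no SOX13 peak on them. Those on chromosome 2 at 119063051 to 119063949 (score 142.25), chromosome 10 at 58275051 to 58276299 (137.75), chromosome 19 at 46423151 to 46424099 (116.25), chromosome 15 at 78632951 to 78633649 (112.75) and chromosome 11 at 72973101 to 72974199 (109.75) overlapped H3K4me3 of both populations. So did the main peak of the chromosome 4 run described above (110.5), also without SOX13. The rank of that H3K4me3 varied. On chromosome 19 it ranked 2700 in Sox13hi and 2190 in Sox13lo, in the upper 13.6% and 12.2% of the lists, whereas on chromosome 11 it ranked 13121 and 11271. The chromosome 10 peak lay 5.55 kb from a Sox13lo peak, just inside the limit. On chromosome 15 a SOX13 peak was 350 bp away.

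The chromosome 9 peak at 77502701 to 77503649 (119.5) held H3K4me3 in both populations, ranked 2195 and 1652, and 2 SOX13 peaks of 200 and 300 bp. The last 2 of the 10 had no H3K4me3 on them. One, on chromosome 14, 9119001 to 9119449 (127), was 71.5 kb from the nearest Sox13hi H3K4me3 and 622.75 kb from the nearest Sox13lo H3K27me3, and held a SOX13 peak that ranked 526. The other, on chromosome 4, 129638201 to 129639699 (116.25), was 1500 bp wide and lay 450 bp from H3K4me3 of Sox13hi and 400 bp from that of Sox13lo. It therefore flanked H3K4me3 and did not overlap it, and the nearest SOX13 peak was 16.7 kb away.

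The 5 widest peaks included 4 of these and 1 more, on chromosome 7, 4483151 to 4484299, 1150 bp wide with a score of 79.25. It had no H3K4me3 on it, the nearest being 4.6 kb away in Sox13lo and 12.65 kb away in Sox13hi.

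The highest-scoring sites with H3K4me3 in Sox13lo alone held H3K4me3 peaks from the lower part of that list. On chromosome 9, 54896101 to 54896949 (score 65), the Sox13lo H3K4me3 peak was 100 bp wide and ranked 17829 of 17954, in the lowest 1% of that list. On chromosome 15, 81065751 to 81066249 (59.75), it was 250 bp wide with rank 15065, and on chromosome 8, 42218951 to 42219399 (51.75), 650 bp wide with rank 10838. The nearest Sox13hi H3K4me3 peak was 21.55, 43.9 and 105.25 kb away. Sites with H3K4me3 in Sox13hi alone also held low-ranking H3K4me3 peaks. Those at 4498551 to 4499449 on chromosome 7 (105.5), 76176351 to 76177049 on chromosome 2 (92.5) and 84851301 to 84851899 on chromosome 4 (85.25) held H3K4me3 peaks of 250, 400 and 400 bp that ranked 16903, 14210 and 14501 of 19924. None of these 6 sites held SOX13, although a SOX13 peak lay 200 bp from the chromosome 2 site.

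SOX13 was next found at the peak on chromosome 6, 124806551 to 124807599 (98.75). Lower-scoring SOX13-bearing peaks followed on chromosome 13, 108678501 to 108679449 (98), and chromosome 5, 143898451 to 143899199 (88.25). The first and second held H3K4me3 in both populations, and on chromosome 13 the H3K4me3 peak was 1950 bp wide in Sox13hi, rank 528. The chromosome 5 peak overlapped no H3K4me3, with a Sox13lo H3K4me3 peak 250 bp away and the nearest of Sox13hi at 19.75 kb. Their SOX13 peaks ranked 2424, 1086 and 2779.

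The highest-scoring peaks still unnamed and on none of the other lists began with the one on chromosome 12, 71008651 to 71009249 (72.5). The others were at 10006701 to 10007449 on chromosome 8 (65.5) and at 195194251 to 195194799 on chromosome 1 (64.25). They were 550 to 750 bp wide and at least 14.05 kb from H3K4me3 of either population.

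Chromosomes differed in the share of their Sox13hi H3K27me3 peaks that were Sox13hi-only. It was lowest on chromosome 11, 493 of 1096 (45.0%, 42.0 to 48.0%), and chromosome 7, 492 of 1015 (48.5%, 45.4 to 51.6%). It was highest on chromosome 18, 321 of 461 (69.6%, 65.2 to 73.8%), and chromosome 16, 289 of 423 (68.3%, 63.7 to 72.7%). The chromosomes with the lowest shares have many Sox13lo peaks to meet, 676 and 599, and those with the highest few, 183 and 174, and the part of peak number in these shares was not tested. Top peaks were spread more evenly, from 20.8% of the Sox13hi-only peaks on chromosome 14 (16.7 to 25.3%) to 28.8% on chromosome 15 (23.98 to 34.1%), with overlapping intervals.

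Set beside Sox13lo-only H3K27me3 peaks, Sox13hi-only peaks had less H3K4me3 and SOX13 in the lists as deposited, but not at equal list length. Of the 1849 Sox13lo-only peaks, 15.0% (13.4 to 16.7%) overlapped H3K4me3 of Sox13hi, 14.9% (13.3 to 16.6%) that of Sox13lo and 3.35% (2.58 to 4.28%) SOX13. The Sox13hi-only shares differed from these by -7.87 points (-9.67 to -6.17), -8.15 points (-9.94 to -6.46) and -1.87 points (-2.82 to -1.04). With the Sox13hi list limited by score to 7268 peaks there were 2529 Sox13hi-only and 2313 Sox13lo-only peaks. The 3 differences were then -0.874 (-3.04 to 1.28), -1.14 (-3.26 to 0.980) and -0.672 points (-1.67 to 0.302), with intervals that include 0. The share in runs was 12.3% and 11.9% (10.5 to 13.5%) as deposited, and 10.9% (9.69 to 12.2%) and 17.2% (15.6 to 18.8%) at equal length. That setting was added after seeing the data.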

How the data were processed

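Peaks of 5 ChIP-seq libraries were analysed, 1 library per group. Per the labels' protocols, cells were fixed with 1% formaldehyde, and libraries of 300 to 500 bp fragments were amplified for 17 cycles. Each deposited list gives positions and the authors' score for every peak, positive and within rounding of 0.25 steps, which was rounded before ranking. Per the submitters' processing notes the build is mm9. Aligner, peak caller, thresholds and control were not given in the sources used here. Input DNA was not used. Deposited ends fall 1 bp short of a 50 bp grid, so widths count the last base. Printed starts count from 1, and ends are those deposited.

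Distances, overlaps of at least 1 bp and runs were computed in SciPy 1.17.1, pandas 2.3.3 and NumPy 2.4.6 under Python 3.11.15, tested on simulated peaks, and figures drawn with matplotlib 3.10.9. All 5 counts compared equalled those of bedtools 2.31.1. Shares carry 95% exact binomial intervals. Named are the 10 highest-scoring and 5 widest peaks, the 5 runs with the most peaks (ties by summed width) and 3 peaks of each overlap class. Members, comparisons and lists were chosen with earlier results of these data known. Alternatives are another distance, equal list length, merged peaks, other overlaps, the upper 10% and other run links. Peaks on chromosomes X and Y were left out by the rule.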

Additional observations from a re-analysis of the deposited data

Results flagged for a closer look

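Chromosomes outside the rule also held H3K27me3 peaks of Sox13hi with no Sox13lo peak within 5 kb, whose share on autosomes was 56.6%. On chromosome X there were 230 of 259 (88.8%, 84.3 to 92.4%), where the Sox13lo list has 45 peaks. On chromosome Y there were 27 of 100 (27%, 18.6 to 36.8%), where the Sox13lo list has 82.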

How the results depend on the processing

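Over 9 alternatives, top peaks exceeded the rest in all 33 recomputed differences of width, H3K4me3, SOX13 and run shares. Of 70 recomputed main values, 36 stayed within the interval of the reported value (or within 1.5 times a count), and 34 did not. With the Sox13hi list limited to the length of the Sox13lo list there were 2529 Sox13hi-only peaks. Their median widths were 450 and 300 bp, top peaks first here and below. H3K4me3 of Sox13hi was at 44.1% and 7.56%, that of Sox13lo at 40.5% and 7.61%, SOX13 at 4.08% and 2.06%, and 7.45% of the rest were in runs. With the upper 10% by score in place of 25%, the upper median width was 400 bp. H3K4me3 was then at 37.7% and 3.70% (Sox13hi) and 34.7% and 3.67% (Sox13lo), SOX13 at 3.89% of the upper 10%, of which 29.9% were in runs. Counting a peak within 1 kb as overlap gave 26.3% and 6.41% for H3K4me3 of Sox13hi, 24.8% and 6.08% for that of Sox13lo, and 5.22% and 2.45% for SOX13. Requiring 50% of the shorter peak gave 17.7% of top peaks on H3K4me3 of Sox13hi. Run shares were 24.6% and 12.3% with a distance over 1 kb to Sox13lo peaks, 17.0% and 8.42% with one over 20 kb, 11.2% and 6.17% with peaks within 1 kb merged, 14.6% and 5.66% with runs linked at 2 kb, and 33.3% and 21.2% at 20 kb. Of the 23 named peaks 19 were kept at a distance over 20 kb. Against Sox13lo-only peaks, the difference in the run share was 0.356 points (-1.36 to 1.97) as deposited, an interval that includes 0. At equal list length it was -6.29 points (-8.28 to -4.31). The differences in H3K4me3 and SOX13 shrank to -0.874, -1.14 and -0.672 points at equal list length. Each setting changes which peaks or overlaps are counted, and the cause of these changes was not tested further. Depth and replicate error are unknown. No paired analysis was possible because no group has a second library, and leaving out a replicate was not possible either.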
